A study of Mus musculus with 4 samples.

Results

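The 9 genes Asns, Slc38a5, Acss1, Mthfd1, Stard10, Sphk1, Fam132a, Mt1 and Mt2 encode enzymes, transporters and binding proteins of amino acid, folate, acetate, lipid and metal metabolism. They were chosen by name, after a higher level in the CD44+ than in the CD44- sort of single mouse bone marrow cells had been seen in these data, and are 9 of 17507 genes in the count tables. The values that chose them are the sort differences, which are therefore given as a description. Whether the genes followed wells rich in Car1, the carbonic anhydrase gene of young red cells, was compared within libraries, in wells that also belong to the sums behind that choice.

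The mice were C57BL/6, with no age, sex, mutation or treatment named in the labels. Marrow was digested with collagenase IV and dispase, and cells negative for CD51, the integrin alpha V chain, were sorted one per well as CD44+ or CD44-. The labels call them TNCs and do not spell the abbreviation out. CD44 is a receptor for hyaluronan found on many blood and stromal cells. Transcripts were counted by SORT-seq, which marks each well by a barcode and counts molecules by their own random tags. Which mice went onto which plate is not given, so p-values reflect only how far the libraries vary, and part of that may be technical.

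Dividing red cell precursors are known to draw heavily on amino acids, one-carbon units for nucleotides and acetyl-CoA, while they fill with haemoglobin and remodel their membrane lipids. Asparagine synthetase is a classical target of the amino acid response, in which the factor ATF4 raises genes for amino acid supply. Sphingosine 1-phosphate in plasma comes in large part from red cells, and metallothioneins bind zinc and copper and are raised by metals and glucocorticoids.

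A well was used when it held at least 1000 transcripts, which left 343 of 1536 wells, with 56, 95 and 87 in CD44+ replicates 1, 2 and 3 and 44, 24 and 37 in CD44- replicates 1, 2 and 3. Replicate 1 of each sort was a plate of its own, and replicates 2 and 3 were each 1 plate shared by both sorts. On the shared plates the sort of a well rests on the assumption that wells are numbered row by row. The summed libraries held 149707 to 1707318 transcripts in the CD44+ sort and 97041 to 158763 in the CD44- sort, so a single transcript weighs far more in the latter. Median depth per well was 1994, 5162 and 11225 transcripts in the CD44+ libraries and 1848, 1795 and 2544 in the CD44- libraries. Well barcodes are the same set on every plate, and the numbers of used wells overlapped by 9 to 69 between pairs of plates, 69 of them between the shared plates. Levels below are CPM, transcripts of a gene scaled to the total of a summed library or class of wells. They are shares of the total, so fewer cells of a type and less RNA of a gene per cell cannot be told apart in a summed library.

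In the summed libraries, 7 of the 9 genes stood higher in each CD44+ library than in any CD44- library. These were Asns, Slc38a5, Acss1, Mthfd1, Stard10, Sphk1 and Fam132a, and over all 2463 genes tested 16.8% showed the same separation. Mt1 and Mt2 overlapped between the sorts, which goes against calling them raised in the CD44+ sort. With each well thinned to the same depth, only Acss1 of the 7 had observed shares of wells holding it that did not overlap between the sorts. Its share was 8.93%, 7.37% and 9.2% in CD44+ replicates 1, 2 and 3 and 0 in each CD44- library. The exact intervals of CD44- replicates 1, 2 and 3 allow up to 8.04%, 14.2% and 9.49%. Each limit lies above the lowest CD44+ share, 7.37%, so Acss1 is not shown to be apart. No share over all genes is given for this thinned measure. For Asns, Slc38a5, Mthfd1, Stard10, Sphk1 and Fam132a the thinned shares overlapped between the sorts. In the edgeR quasi-likelihood fit without the pairs, 0 of the 9 and 0.0406% of all genes tested were called higher, while 470 genes had an unadjusted p below 0.05. When replicate pairs entered as a block, 6 of the 9 and 1.75% of all genes were called higher, and DESeq2 called 7 of the 9 and 3.98% of all genes. Since the genes were selected on this contrast, these counts say nothing further about them. Marker genes moved between the sorts as well. The early erythroid list, with all 15 genes found in the CD44+ libraries and 13 to 15 in the CD44- libraries, summed to 4946 to 11676 CPM against 1836 to 2950 CPM. The late erythroid list, with 9 of its 12 genes in the count tables, did not share this direction. It summed to 1486, 2532 and 2946 CPM in CD44+ replicates 1, 2 and 3 against 36171, 2512 and 5541 CPM in the CD44- replicates. The stromal list summed to 167 to 1421 CPM in the CD44+ against 5833 to 31947 CPM in the CD44- libraries, and the neutrophil list to 5283 to 12968 against 1285 to 37784 CPM.

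**Figure D1:**
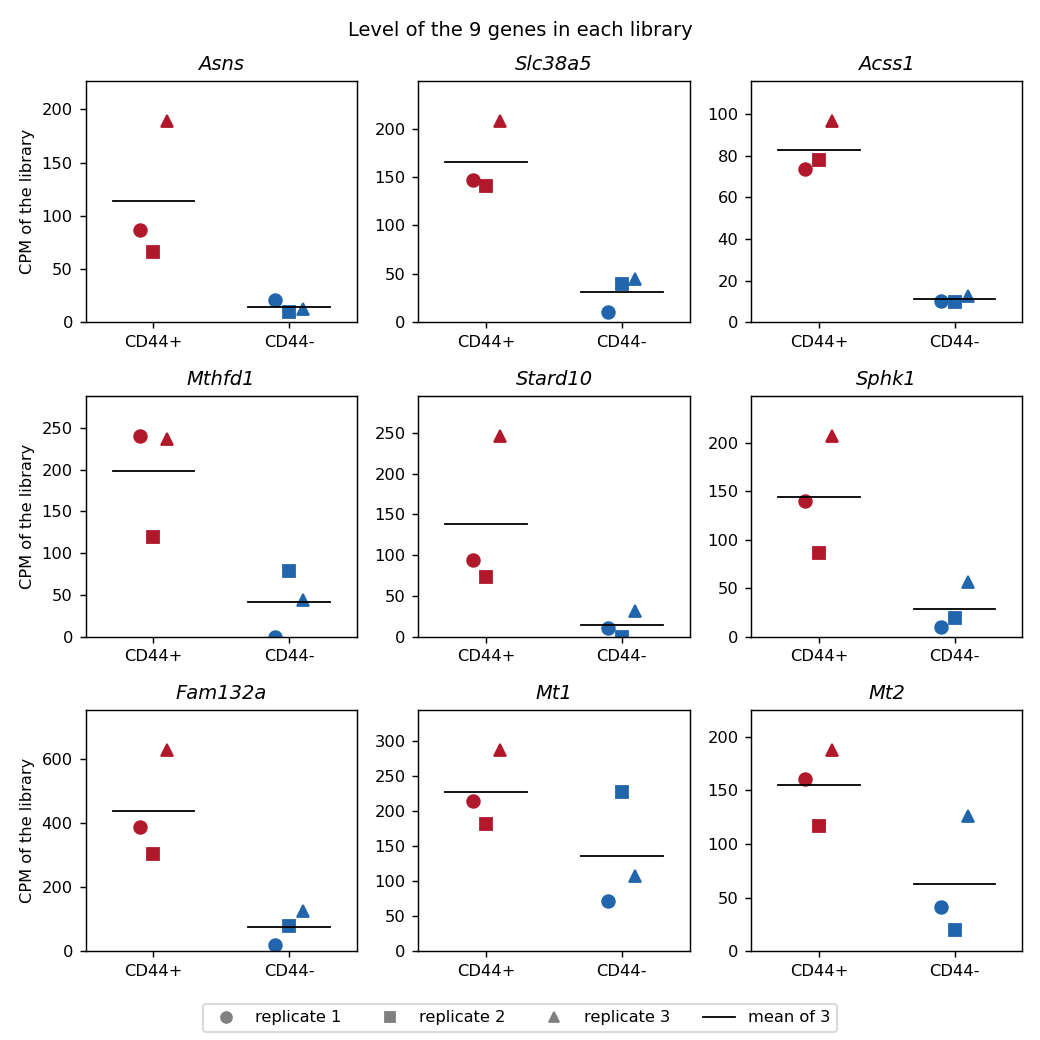
Level of each gene in CPM (vertical axis, starting at 0) in the 3 libraries of the CD44+ sort and the 3 of the CD44- sort (points, replicate by symbol; black line, mean of 3). The CD44+ points of Asns lie between 65.5 and 189 CPM and its CD44- points between 9.87 and 20.6 CPM, while the points of Mt1 and Mt2 overlap between the sorts.

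Asns encodes asparagine synthetase, which makes asparagine from aspartate with glutamine as nitrogen donor. Its gene spans 7675169 to 7693254 of chromosome 6, reverse strand (GRCm38, the build mm10; GENCODE vM21). The gene stood at 86.8, 65.5 and 189 CPM in CD44+ replicates 1, 2 and 3, from 13, 73 and 323 transcripts, and at 20.6, 9.87 and 12.6 CPM in the CD44- libraries, from 2, 1 and 2 transcripts. All 3 CD44+ libraries were above all CD44- libraries, and replicate 3 was highest. The fitted log2 difference was 2.89 (SE 0.65). By class of well, Asns stood at 208 CPM in the early erythroid-like wells of the CD44+ sort (classes are defined below) and at 8.31 CPM in its B lineage-like wells.

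Slc38a5 encodes a sodium-coupled transporter of glutamine, serine, glycine and related amino acids. The locus is 8271133 to 8280179 of chromosome X, forward strand. It reached 147, 141 and 208 CPM in CD44+ replicates 1, 2 and 3 but 10.3, 39.5 and 44.1 CPM in CD44- replicates 1, 2 and 3, the latter from 1, 4 and 7 transcripts. The sorts did not overlap, and the log2 difference was 2.26 (SE 0.45). In the CD44+ sort the gene stood near the same level in late erythroid-like wells, at 253 CPM, as in early ones, at 258 CPM. That class has 8 wells, and 1 of them held 111333 of its 154261 transcripts.

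The 250 bases before the RefSeq start of Asns are shown because they hold the letters TGATGNAA, the composite element for C/EBP and ATF factors known from the amino acid response. They span chr6:7693210-7693459 (GRCm38.p6, reverse strand, written 5′ to 3′), and the capitals mark the match, found by a search of both strands.
Asns: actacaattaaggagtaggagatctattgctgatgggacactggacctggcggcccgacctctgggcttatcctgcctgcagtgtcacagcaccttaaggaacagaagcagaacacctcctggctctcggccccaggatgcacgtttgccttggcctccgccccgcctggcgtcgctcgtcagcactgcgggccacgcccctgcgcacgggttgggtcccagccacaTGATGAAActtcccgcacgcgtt
Of 32851 RefSeq promoter windows of the same length (250 bases before and 50 after a start), 3.97% held such a match. Among the 8 of 9 genes matched to the table, Asns alone did. No window was found for Fam132a, which RefSeq names C1qtnf12.

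Mthfd1 encodes the cytosolic enzyme that interconverts folates carrying one-carbon units for purine and thymidylate synthesis. The gene spans 76255298 to 76319803 of chromosome 12, forward strand, and overlaps 3 annotated genes on the opposite strand, whose reads cannot be told apart if counting ignored strand. Mthfd1 stood at 241, 119 and 237 CPM in CD44+ replicates 1, 2 and 3, against 0, 78.9 and 44.1 CPM in the CD44- replicates, from 0, 8 and 7 transcripts. The 0 of 97041 transcripts in CD44- replicate 1 allows up to 30.9 CPM (3 counts). The libraries did not overlap, though CD44+ and CD44- replicate 2 lay near each other, and the log2 difference was 2.21 (SE 0.73), or 2.94 without CD44- replicate 2.

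Acss1 encodes the mitochondrial enzyme that turns acetate into acetyl-CoA. It spans 150618105 to 150668500 of chromosome 2, reverse strand, and overlaps 1 noncoding gene on the other strand. Acss1 stood at 73.5, 77.8 and 96.7 CPM in the CD44+ replicates, against 10.3, 9.87 and 12.6 CPM in the CD44- replicates, from 1, 1 and 2 transcripts. Both sorts were even within themselves, and the log2 difference was 2.78 (SE 0.52). Acss1 was the only 1 of the 9 whose CPM in B lineage-like wells of the CD44+ sort, 137, was above that in early erythroid-like wells, 110. In the CD44- sort the B lineage-like wells stood at 17.6 CPM, from 1 transcript.

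Stard10 encodes a START domain protein that carries phospholipids between membranes. Its locus is 101317086 to 101346626 of chromosome 7, forward strand, with 2 overlapping annotated genes. Stard10 stood at 93.6, 73.4 and 246 CPM in the CD44+ replicates, against 10.3, 0 and 31.5 CPM in the CD44- replicates, from 1, 0 and 5 transcripts. CD44+ replicate 3 stood far above the other two, the sorts did not overlap, and the log2 difference was 2.99 (SE 0.80), or 4.54 without CD44- replicate 3. Like Slc38a5, the gene stood in late erythroid-like wells of the CD44+ sort, at 260 CPM, about where it stood in early ones, at 250 CPM, in the class of 8 wells that 1 deep well dominates.

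Sphk1 encodes sphingosine kinase 1, which phosphorylates sphingosine to the signalling lipid sphingosine 1-phosphate. The kinase gene spans 116530925 to 116536674 of chromosome 11, forward strand, with 1 antisense gene over it. Sphk1 stood at 140, 86 and 207 CPM in the CD44+ replicates, against 10.3, 19.7 and 56.7 CPM in the CD44- replicates, from 1, 2 and 9 transcripts. The sorts did not overlap, and the log2 difference was 2.11 (SE 0.59), or 3.09 without CD44- replicate 3. Outside erythroid wells its transcripts were in stromal-like wells, at 105 CPM in the CD44+ sort (5 transcripts in 6 wells) and 74.5 CPM in the CD44- sort (7 transcripts in 14 wells). B lineage-like wells of the CD44+ sort held 0 in 240792 transcripts.

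Fam132a, now named C1qtnf12, encodes a secreted protein of the C1q and TNF-related family that is best known from fat tissue. The gene spans 155962318 to 155966629 of chromosome 4, forward strand. Fam132a stood at 388, 304 and 628 CPM in the CD44+ replicates, from 58, 340 and 1072 transcripts, and at 20.6, 78.9 and 126 CPM in the CD44- libraries, from 2, 8 and 20. Replicate 3 was highest in both sorts, the sorts did not overlap, and the log2 difference was 2.44 (SE 0.52). At equal depth the separation was not seen, as for Asns, Slc38a5, Mthfd1, Stard10 and Sphk1. With each well thinned to 1000 transcripts the difference of Fam132a was 1.14 (SE 0.88). Fam132a was then found in 17.9%, 7.37% and 26.4% of wells of the CD44+ replicates. In the CD44- replicates it was found in 0, 4.17% and 27%, which overlap with these. Without CD44- replicate 3 the unthinned difference was 3.01. In the CD44+ sort it had 757 CPM in early erythroid-like, 149 in late erythroid-like, 65.5 in neutrophil lineage-like and 16.6 in B lineage-like wells.

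Mt1 and Mt2 encode the small cysteine-rich metallothioneins and lie next to each other on chromosome 8, Mt2 from 94172664 to 94173568 and Mt1 from 94179082 to 94180327, both on the forward strand. The longest run shared by their transcripts was 20 bases, against reads of 75 bases. Mt1 stood at 214, 182 and 287 CPM in the CD44+ replicates, against 72.1, 227 and 107 CPM in the CD44- replicates. CD44- replicate 2 was above CD44+ replicates 1 and 2, so the sorts overlapped, with a log2 difference of 0.68 (SE 0.43). Mt2 stood at 160, 117 and 187 CPM in the CD44+ replicates, against 41.2, 19.7 and 126 CPM in the CD44- replicates. CD44- replicate 3 was above CD44+ replicate 2, and the log2 difference was 1.15 (SE 0.56). Single CD44- libraries set these values, with Mt1 at 1.25 without CD44- replicate 2 and Mt2 at 2.18 without CD44- replicate 3.

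The metallothionein transcripts of the CD44- sort lay in other classes of wells than those of the CD44+ sort. In the CD44- sort Mt1 stood at 203 CPM in neutrophil lineage-like and 170 CPM in stromal-like wells, and Mt2 at 181 CPM in stromal-like wells. In the CD44+ sort Mt1 stood at 345 CPM and Mt2 at 246 CPM in early erythroid-like wells, and in the 6 stromal-like wells at 335 and 126 CPM.

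The 250 bases before the RefSeq starts of both genes are shown because metal response elements are the known route by which metals raise them. The core letters TGCGCNC or TGCACNC on either strand are in capitals, in chr8:94178839-94179088 for Mt1 and chr8:94172368-94172617 for Mt2 (GRCm38.p6, forward strand).
Mt1: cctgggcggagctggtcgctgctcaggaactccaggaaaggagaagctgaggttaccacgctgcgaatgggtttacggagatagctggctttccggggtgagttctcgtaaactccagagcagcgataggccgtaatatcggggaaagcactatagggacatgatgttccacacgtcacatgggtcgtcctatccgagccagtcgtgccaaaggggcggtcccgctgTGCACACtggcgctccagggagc
Mt2: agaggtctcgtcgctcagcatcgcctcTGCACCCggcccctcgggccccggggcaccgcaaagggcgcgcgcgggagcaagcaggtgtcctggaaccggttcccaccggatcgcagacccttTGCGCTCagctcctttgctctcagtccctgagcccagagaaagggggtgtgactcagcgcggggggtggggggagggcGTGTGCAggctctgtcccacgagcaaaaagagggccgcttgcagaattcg
The stretch of Mt2 held 3 matches and that of Mt1 held 1, and with the 50 bases after the start the windows held 4 and 3. Of all 32851 windows, 1.97% held 3 or more and 0.517% held 4 or more such matches. Asns and Acss1 held 1 match each, as did 2 of the 5 start windows of Sphk1, beside 25.7% of all windows that held at least 1. The letters AGATAA of GATA factors, found in 11.2% of windows, were in the same 2 windows of Sphk1 and in no window of the other matched genes. A match says only that the letters are there.

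Wells were placed in a class by the marker list with the highest summed level, where at least 3 of its markers were found. The early erythroid list holds 15 genes, among them Car1, Car2, Klf1, Gata1, Gfi1b, Epor and Tfrc, and none of the 9 genes. It was highest in 19, 18 and 60 wells of CD44+ replicates 1, 2 and 3 and in 0, 0 and 16 wells of the CD44- libraries. These wells held 44.2%, 35.2% and 81.7% of the CD44+ transcripts and 27.2% of those of CD44- replicate 3. The class is a range and not a type, since in 22 of its 113 wells the next list came within 1.5-fold. In its 97 CD44+ wells the early erythroid list had a median of 12.5 transcripts per 1000, late erythroid genes 0.647, neutrophil genes 0.114 and stromal genes 0.0331.

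In the CD44+ sort, 92.2% of the 5437 transcripts of the 9 genes lay in early erythroid-like wells, which held 62.3% of all transcripts. By gene the share ran from 77.6% for Acss1 through 88.3% for Mt1, 89.5% for both Slc38a5 and Stard10, 90.6% for Mthfd1, 94.4% for Asns, 95.5% for Fam132a and 96% for Mt2 to 98.1% for Sphk1. The 9 genes summed to 3072, 2641 and 2702 CPM in these wells of CD44+ replicates 1, 2 and 3, and to 335, 363 and 429 CPM in all other wells of the same libraries. The classes did not overlap in any library. In CD44- wells, 18.5% of 157 transcripts were in the early erythroid-like class, which held 12.1% of all transcripts.

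**Figure D2:**
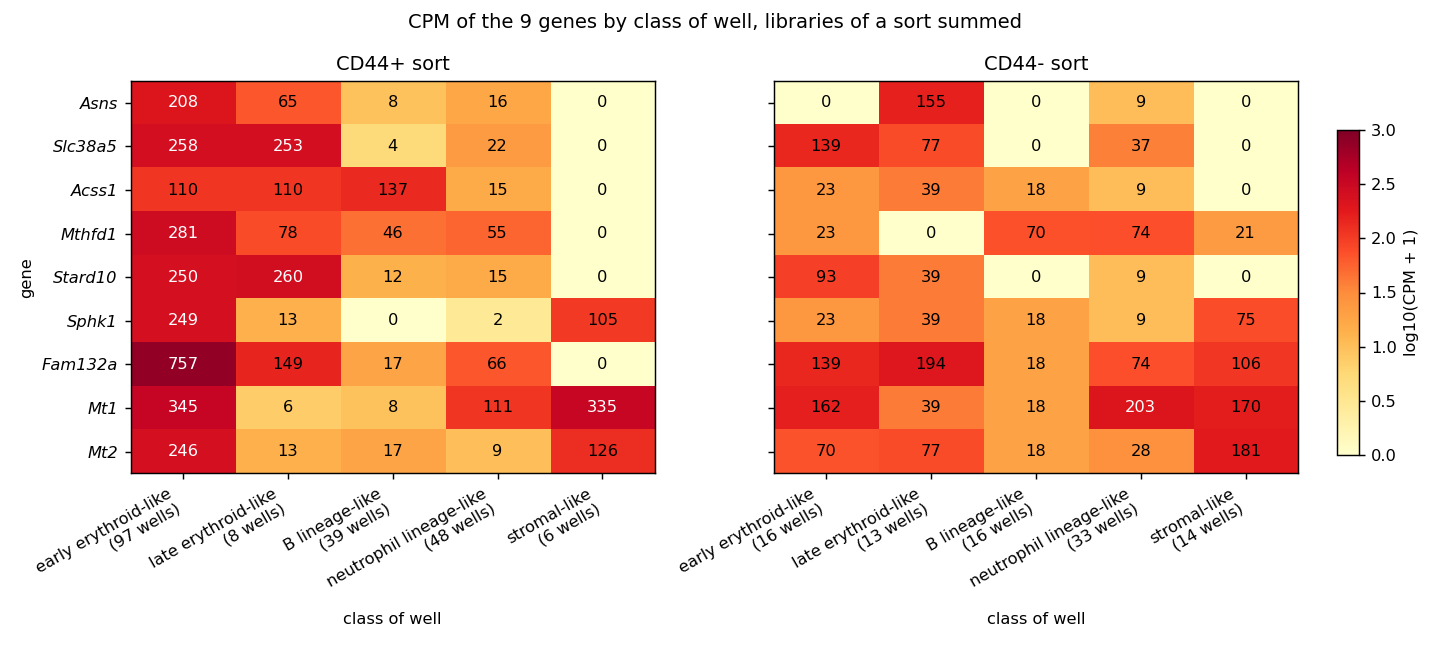
CPM of each gene (rows) in 5 classes of wells (columns, with the number of wells), the 3 libraries of a sort summed, in the CD44+ (left) and CD44- sort (right); colour is log10(CPM + 1). In the CD44+ sort the early erythroid-like column holds 110 to 757 CPM, and Acss1 is the only gene with a higher value, 137 CPM, in the B lineage-like column.

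Set against all other wells of the same CD44+ libraries, 8 of the 9 genes were higher in early erythroid-like wells in edgeR with the library as a block, against 5.12% of 5140 genes tested. This comparison is not independent of the choice of genes, since these wells held 62.3% of the CD44+ transcripts on which the genes were chosen, so its values are a description. Sphk1 stood at 302, 237 and 250 CPM against 12, 4.14 and 16 CPM in replicates 1, 2 and 3, a log2 difference of 4.69 (SE 0.48, adjusted p = 8.61e-08). Its classes were the furthest apart of the 9. Mt2 stood at 363, 301 and 224 CPM against 0, 16.6 and 22.4 CPM (3.94, SE 0.43, adjusted p = 1.89e-07). Fam132a stood at 848, 757 and 753 CPM against 23.9, 58 and 70.4 CPM (3.62, SE 0.40, adjusted p = 2.51e-07). These 2 differed in all libraries by more than the spread between libraries.

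Of the other genes, Asns stood at 121, 158 and 226 CPM against 59.8, 15.2 and 22.4 CPM (2.77, adjusted p = 0.000141). Slc38a5 (2.41), Mthfd1 (2.34), Mt1 (2.06) and Stard10 (1.77, SE 0.36, adjusted p = 0.000717) passed too. Acss1, at 90.7, 107 and 112 CPM against 59.8, 62.1 and 28.8 CPM, did not pass (1.00, SE 0.41, adjusted p = 0.110). It was above its other wells in each library all the same. Without CD44+ replicate 2 the adjusted p of Mt1 was 0.0858, and without replicate 3 that of Stard10 was 0.130. Without CD44+ replicate 1 all 9 passed, but 635 of all 7087 genes tested were then called higher. Without replicate 2 the count was 57 of 3301 genes, and without replicate 3 it was 66 of 3811. The early erythroid-like class was set after the data had been seen.

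Depth and quality moved with the class. Early erythroid-like wells had median depths of 2481, 17051 and 16526 transcripts in CD44+ replicates 1, 2 and 3, and other wells 1842, 4508 and 6931. The part of depth in the difference was not tested. Without wells of low quality (5% or more of transcripts from Kcnq1ot1, or 50% or more mitochondrial) the same 8 genes passed. In that fit 366 of all 5313 genes tested were called higher. After every well was thinned to 1000 transcripts, Fam132a was found in 39.2% of 97 early erythroid-like wells (95% exact interval 29.4% to 49.6%) and in 0 of 39 B lineage-like wells, where up to 9.03% is allowed by the interval. Slc38a5 was found in 34% against 2.56%, and Sphk1 in 16.5% against 0. Median depths before thinning were 11294 and 4508 transcripts. Before thinning, Fam132a was found in 77 of 97 against 4 of 39 wells, Slc38a5 in 70 against 1, and Sphk1 in 64 against 0. Intervals cover counting error only.

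Outside the early erythroid-like and Car1-rich wells, the 9 genes summed to 335, 363 and 378 CPM in the CD44+ libraries and to 159, 480 and 519 CPM in the CD44- libraries. The CD44+ sort was higher on pair 1 and lower on pairs 2 and 3, with a mean log2 ratio of 0.07 (SD 0.87, n = 3 pairs). With all wells the sums were 1544, 1165 and 2286 against 196, 483 and 561 CPM. At the CD44- share of early erythroid-like wells, the CD44+ sums came to 335, 363 and 1047 CPM. On pairs 1 and 2 that share is 0, so these are the levels of the other wells alone. In a sort fit without early erythroid-like wells, 0 of the 9 genes passed the filter on low counts, and edgeR called 0 of 1604 genes (110 had an unadjusted p below 0.05).

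Pair 3 was the only one with early erythroid-like wells in both sorts, 60 CD44+ and 16 CD44-. There the 9 genes summed to 2702 CPM (exact Poisson interval 2617 to 2790; 3769 transcripts) in the CD44+ wells and to 672 CPM (450 to 965; 29 transcripts) in the CD44- wells. Asns had 316 transcripts against 0, and 0 of 43158 transcripts allows up to 69.5 CPM, below the 226 CPM of the CD44+ wells. Fam132a stood at 753 against 139 CPM (51 to 303), Mthfd1 at 280 against 23.2 CPM (0.587 to 129) and Sphk1 at 250 against 23.2 CPM (0.587 to 129). Stard10 stood at 287 against 92.7 CPM (25.3 to 237) and Mt2 at 224 against 69.5 CPM (14.3 to 203). For Slc38a5 (246 against 139 CPM, 51 to 303), Acss1 (112 against 23.2 CPM, 0.587 to 129) and Mt1 (324 against 162 CPM, 65.2 to 334) the CD44+ level lay inside the CD44- interval. With 1 library per sort there is no replicate and no test of this difference.

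The CD44- wells of that class differed from the CD44+ ones in other ways too. Their median depth was 1822 transcripts against 16526, and in 8 of 16 the next marker list came within 1.5-fold, against 14 of 97 CD44+ wells. Their medians per 1000 transcripts were 6.92 for the early erythroid list, 4.61 for neutrophil genes and 2.31 for stromal genes. The part of these in the lower level was not tested. Among wells of 1000 to 3000 transcripts on pair 3, the 9 genes summed to 3426 CPM (2386 to 4764) in 6 CD44+ wells and to 1029 CPM (652 to 1543) in 13 CD44- wells. Among wells of 3000 to 10000 transcripts they summed to 1291 CPM (1079 to 1532) in 15 CD44+ and 288 CPM (106 to 628) in 3 CD44- wells. The CD44+ value was thus higher at both depths, while in CD44+ replicate 2 the 5 wells of the middle depth summed to only 432 CPM.

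**Figure D3:**
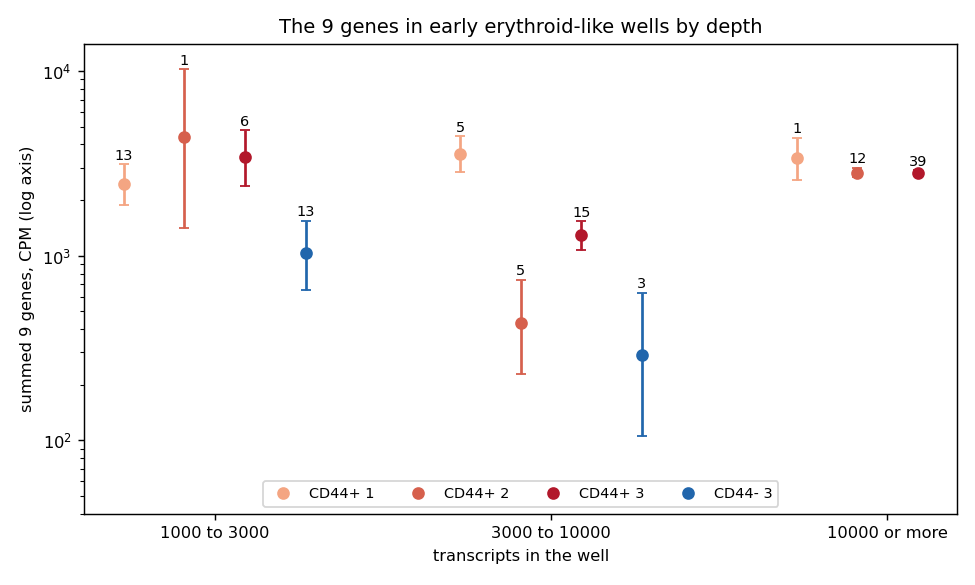
Summed level of the 9 genes in CPM (log axis) in early erythroid-like wells of 3 ranges of depth, for the 4 libraries that hold such wells. Points are summed wells, bars exact 95% Poisson intervals of the transcripts and digits the number of wells; on pair 3 the CD44+ points lie at 3426 and 1291 CPM and the CD44- points at 1029 and 288 CPM in the 2 shallower ranges.

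Car1-rich wells were narrower, with at least 2 Car1 transcripts and at least 2 per 1000. They numbered 14, 4 and 27 in CD44+ replicates 1, 2 and 3 and 1, 1 and 2 in the CD44- libraries, and 46 of the 49 were early erythroid-like. They held 37.4%, 19.2% and 47.6% of the CD44+ transcripts. Near the limit lay 11 CD44+ wells with 1 to 2 and 15 with 2 to 3 Car1 transcripts per 1000. Car1-rich wells of CD44+ replicates 1, 2 and 3 had median depths of 2865, 40744 and 22538 transcripts, against 1899, 5011 and 8188 in the other wells.

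Of the 9 genes, 6 were higher in Car1-rich than in other wells of the CD44+ libraries in edgeR with the library as a block, against 2.09% of 6215 genes tested. Here too the wells are part of the sums on which the genes were chosen, so the count is not independent of that choice. Mt2 stood at 393, 506 and 328 CPM against 21.3, 24.3 and 59.3 CPM, a log2 difference of 3.06 (SE 0.36, adjusted p = 2.17e-08). Mt1 stood at 429, 648 and 477 CPM against 85.3, 70.9 and 114 CPM (2.16, SE 0.31, adjusted p = 1.71e-06). For both genes Car1-rich wells stood higher in each library, as they did for all the other genes except Stard10. Mthfd1 (1.72, SE 0.31, adjusted p = 5.97e-05), Fam132a (1.69, SE 0.32, adjusted p = 0.000141), Asns (1.81, SE 0.42, adjusted p = 0.00222) and Sphk1 (1.46, SE 0.36, adjusted p = 0.00384) passed as well. Asns stood at 143, 281 and 259 CPM against 53.3, 14.4 and 125 CPM, its widest gap being in replicate 2.

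Acss1 (0.52, SE 0.34, adjusted p = 0.425), Slc38a5 (0.50, SE 0.31, adjusted p = 0.368) and Stard10 (0.25, SE 0.34, adjusted p = 0.745) did not pass. Stard10 stood at 197, 121 and 237 CPM in Car1-rich and 32, 62 and 255 CPM in other wells, so replicate 3 had no gap. The calls leaned on CD44+ replicate 2, with its 4 Car1-rich wells. Without it Mt1 (1.66, adjusted p = 0.00822), Mt2 (2.42, adjusted p = 2.48e-05) and Mthfd1 (1.37, adjusted p = 0.0478) passed, while Asns fell to 0.72 (adjusted p = 0.799), Fam132a to 1.29 (0.0826) and Sphk1 to 0.96 (0.403). Of the 4-fold changes put into simulated data, 29.9% were found by this test. The simulation set the same spread for all genes and held no smaller changes. It therefore does not show how often differences as small as those of Acss1, Slc38a5 and Stard10 are missed. With the limit at 1 Car1 transcript 8 of the 9 and 5.35% of all genes were called higher. At 5 per 1000, which no well of CD44+ replicate 2 reached, edgeR called 0 of the 9 and 0.237% of all genes, with 383 genes at an unadjusted p below 0.05. DESeq2 called 4 of the 9 beside 0.241% of all genes, and edgeR without the library block 3 of the 9 beside 0.274%.

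**Figure D4:**
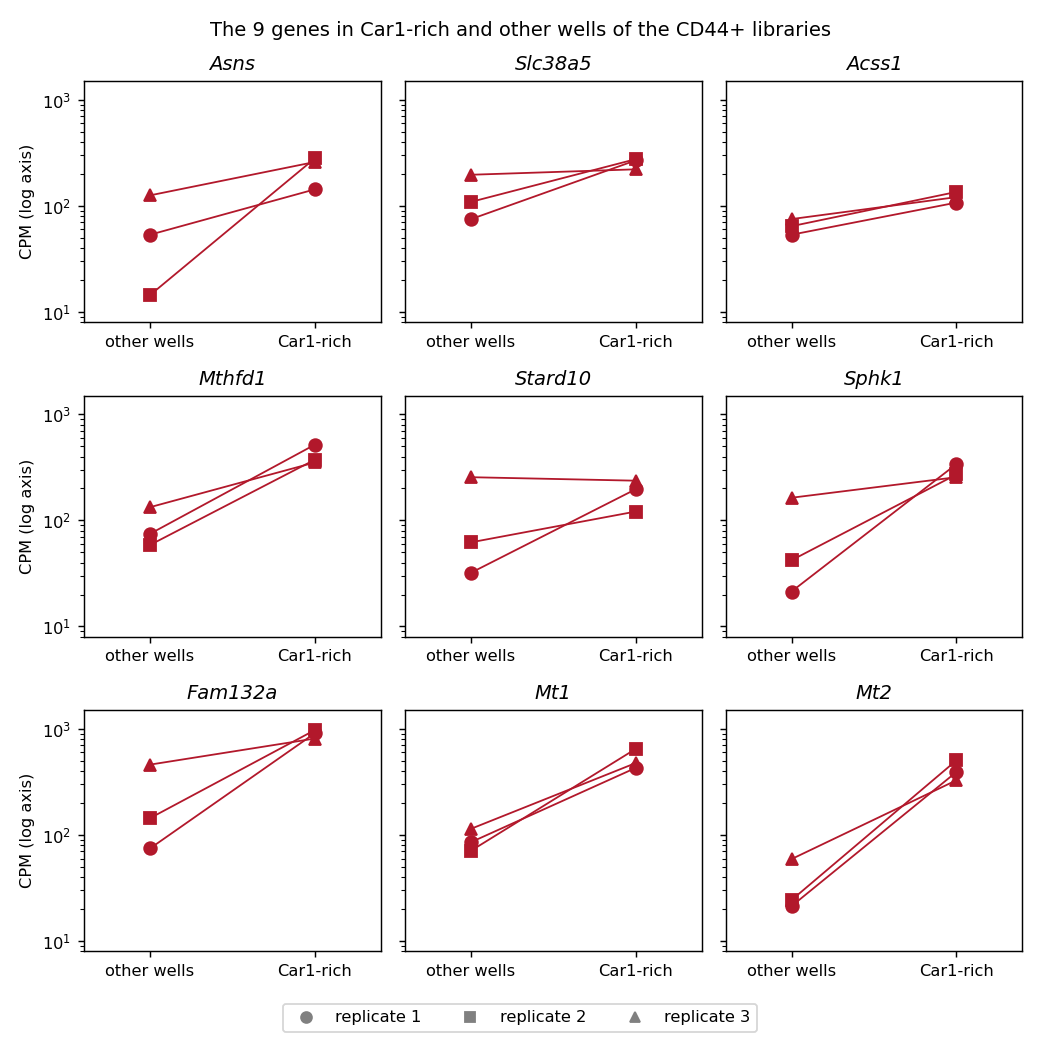
CPM (log axis) of each gene in the other wells and the Car1-rich wells of CD44+ replicates 1, 2 and 3 (symbols, joined by library). The lines of all genes but Stard10 rise in all 3 libraries, from 70.9 to 114 CPM to 429 to 648 CPM for Mt1, and Stard10 is level in replicate 3.

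Within early erythroid-like wells of the CD44+ libraries, Mt2 (1.85, SE 0.45, adjusted p = 0.00316) and Mt1 (1.48, SE 0.42, adjusted p = 0.0286) were higher in Car1-rich than in the remaining wells, as were 0.255% of 3133 genes tested. The other 7 genes did not pass, with Asns at 1.24, Mthfd1 at 0.85, Fam132a at 0.22, Acss1 at -0.01, Sphk1 at -0.13, Stard10 at -0.82 and Slc38a5 at -0.86. In a further fit all CD44+ wells, of any class, were ranked by the other early erythroid markers, with the same number of wells per library. There Mt1 stood at -0.37 and Mt2 at -0.03, and Fam132a (1.56) and Slc38a5 (1.32) passed, beside 130 of 5614 genes called higher. Over the same wells, with Car1 setting the class, Mt1 stood at 2.16 and Mt2 at 3.06. Mt1 and Mt2 thus passed where Car1 set the class and did not in this ranking by its companion markers. The ranking takes only as many wells per library as were Car1-rich, so other early erythroid-like wells fall on the opposite side. In the whole early erythroid-like class, set by Car1 and its companions together, Mt1 (2.06) and Mt2 (3.94) both passed. The difference between these results was not tested.

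At the limit of 2 Car1 transcripts per 1000, the sort difference was also seen outside the Car1-rich wells, though little of it on pair 2. In wells outside that class the 9 genes summed to 491, 589 and 1582 CPM in the CD44+ libraries and to 159, 480 and 550 CPM in the CD44- libraries, with log2 ratios of 1.62, 0.30 and 1.52. The Car1-rich wells held 63.3% of the genes' CD44+ transcripts and 36.4% of all CD44+ transcripts. With the limit at 1 Car1 transcript per well, the mean log2 ratio outside the class was -0.03 in place of 1.15, and at 5 per 1000 it was 2.03. Whether the Car1 class difference itself differed between sorts could be fitted in edgeR for Fam132a, Mt1 and Slc38a5. Of these 3, 0 passed, beside 2 higher and 5 lower among all 1139 genes tested, so the count says little about the 3. Mt1 stood at 2.96 (SE 1.01, adjusted p = 0.177, unadjusted p = 0.00358). The CD44- sort has 4 Car1-rich wells.

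**Figure D5:**
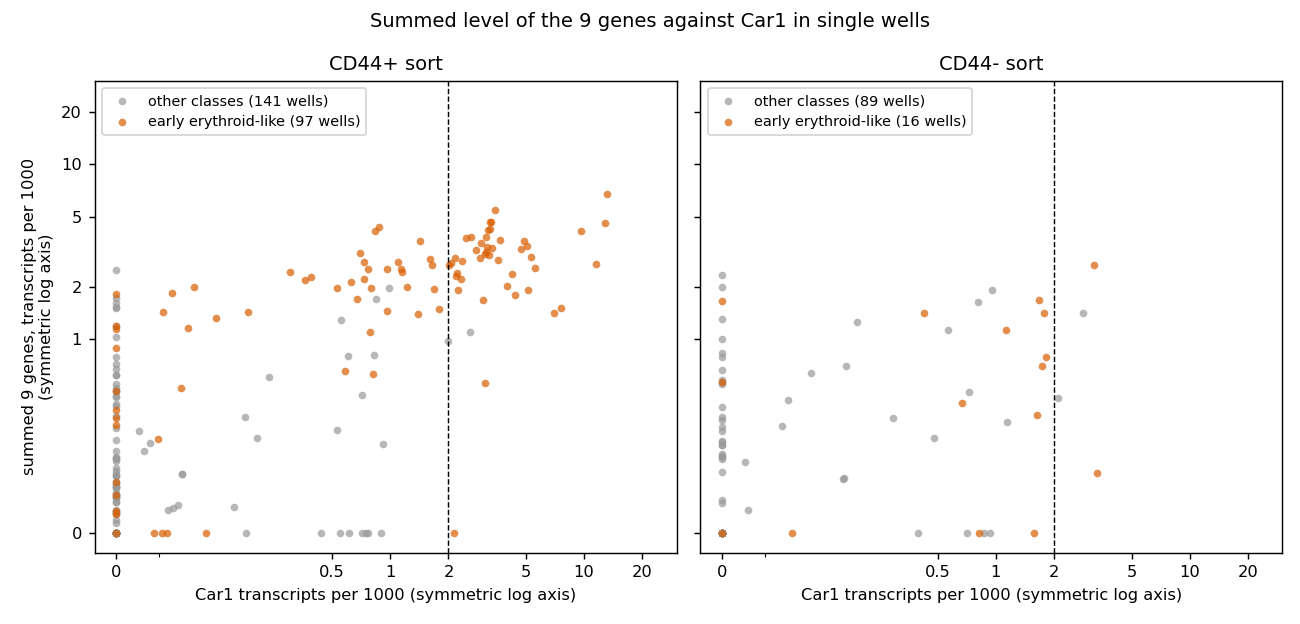
Transcripts of the 9 genes per 1000 (vertical axis) against Car1 transcripts per 1000 (horizontal axis, both symmetric log) in the 238 CD44+ and 105 CD44- wells, each point 1 well; orange, early erythroid-like wells; dashed line, 2 Car1 transcripts per 1000. In the CD44+ sort some early erythroid-like wells left of the line reach the levels of those right of it, and many others stand lower.

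Other genes of the pathways were followed in lists that leave the 9 out. Of 12 tested targets of the amino acid response, Eif4ebp1, a translation repressor, was higher in Car1-rich wells (1.27, SE 0.34, adjusted p = 0.00965), and the list's median was 0.25 against -0.01 over all genes. In early erythroid-like wells Eif4ebp1, the transporter gene Slc7a5 and the proline synthesis gene Aldh18a1 were higher and the factor Cebpb lower, 3 against 1 of 12. Over all 5140 genes tested in that comparison, 263 were higher and 610 lower. Of 20 aminoacyl-tRNA synthetases, Farsb was higher in Car1-rich wells (1.33) and Hars (1.65), Farsb and Eprs in early erythroid-like wells. All 20 had a fitted difference above 0 in the latter, with a median of 0.52 against 0.03 over all genes.

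Among 11 tested amino acid transporters besides Slc38a5, 0 were higher and 2 lower in Car1-rich wells, Slc43a2 (-3.94) and the glutamine transporter gene Slc1a5 (-1.08). In early erythroid-like wells the same pair was lower (-4.26 and -1.21) and Slc7a5 (1.61) and Slc43a1 (1.27, adjusted p = 0.0204), transporters of large neutral amino acids, were higher, 2 against 2 of 10 tested. Of 16 folate and purine genes 0 passed in edgeR (6 had an unadjusted p below 0.05), and 15 had a difference above 0 with a median of 0.64. In early erythroid-like wells the folate carrier gene Slc19a1 passed (1.79, adjusted p = 0.0415). Of 10 acetyl-CoA genes 0 passed in Car1-rich wells (1 had an unadjusted p below 0.05) and Dlat, of the pyruvate dehydrogenase complex, did in early erythroid-like wells (1.34).

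Of 11 tested sphingolipid genes besides Sphk1, Mfsd2b, the exporter of sphingosine 1-phosphate in red cells (2.48, SE 0.40, adjusted p = 5.6e-05), and Ugcg, which makes glucosylceramide (2.13), were higher in early erythroid-like wells. Cers5 (-4.14) and the receptor gene S1pr4 (-2.75) were lower. Of 7 tested zinc and metallothionein genes other than Mt1 and Mt2, 0 passed in Car1-rich wells, and 0 had an unadjusted p below 0.05, with a median of 0.02. START domain genes (0 of 3, 1 of them with an unadjusted p below 0.05) and C1q and TNF-related genes (none tested) gave no call. The dissociation stress genes Klf6 (-2.19), Fos (-1.70) and Zfp36 (-2.36) were lower in Car1-rich wells, 3 of 10 tested beside 8.4% of all genes. In early erythroid-like wells the same genes were lower (Fos -3.03, Klf6 -2.58, Zfp36 -3.39), 3 of 9 tested beside 610 of all 5140 genes. Between the sorts, with the pair as a block, the median of this list was -1.83. An unadjusted p below 0.05 was seen in 9 of 10, beside 614 of all 2463 genes tested. Fosb (-2.78) and Jun (-2.53) were called lower in the CD44+ sort, as were 113 of the 2463 genes. The part of dissociation stress in the results was not tested.

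For each gene the 3 genes of most similar pattern were taken over 179 wells of at least 3000 transcripts thinned to 3000, by Pearson correlation within libraries across 3962 genes. The wells share libraries, and the counts are sparse. Fam132a was closest to Cldn13 (0.55), Car1 (0.53) and Car2 (0.52), and Slc38a5 to Cldn13 (0.53), Ermap (0.47) and Ctse (0.47). Asns was closest to Tomm20 (0.45), Car2 (0.44) and Odc1 (0.43). Mt1 was closest to Car1 (0.46), Fbl (0.44) and Rangrf (0.42), and Mt2 to Isyna1 (0.43), Car1 (0.42) and Qdpr (0.41). Stard10 was closest to Blvrb (0.44), Alad (0.44) and Aqp1 (0.44), Mthfd1 to Fbl (0.40), Cdc25a (0.38) and Orc6 (0.38), and Sphk1 to Mogs (0.38), Cnpy2 (0.37) and Ermap (0.36). Acss1 was closest to Celf1 (0.42) and the ribosomal protein genes Rps19 (0.40) and Rpl13a (0.40), with Car1 only 654th. Between the 9, the highest values were 0.36 for Asns with Fam132a, 0.35 for Sphk1 with Fam132a and 0.30 for Mt1 with Mt2, and the median over all genes was 0.00 to 0.06.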

How the data were processed

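Single-cell SORT-seq tables of 4 plates of 384 wells were used. The authors deposited expected counts: molecules estimated from random tags, unscaled; 9.74% of values above 0 are not whole, the smallest of them 7.01. BWA 0.7.15 and mm10 are named in the submitters' processing notes; how reads were counted, and whether by strand, is not given. Whole counts had been assumed in the planned design, and sums were rounded for the tests. Spike-ins were left out. The labels put rows A to H of shared plates in the CD44+ and I to P in the CD44- sort; that wells are numbered along rows is an assumption the labels do not state. No doublet caller was run, since cells were sorted singly.

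Wells with at least 1000 transcripts were summed per library and class and compared with edgeR 4.0.16 in R 4.3.3 (TMM, filterByExpr, quasi-likelihood test, two-sided, Benjamini-Hochberg adjusted p under 0.05). An SE is the absolute log2 difference divided by the square root of F. DESeq2 1.42.0 was an alternative. The sort fit has no covariate. Same-numbered libraries correlated in their deviations from the sort means (0.43, 0.30 and 0.33; other combinations -0.35 to 0.07), and replicates 2 and 3 share plates, so the numbers were taken to pair the libraries. On simulated data the sort test found 64% of 4-fold and 100% of 8-fold changes among 2352 genes, and the Car1 class test 29.9% and 91.9% among 5813.

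The 9 genes and all lists were chosen with earlier results of these data known. Named besides the 9 are list genes that passed (at most 6 per list) and the 3 nearest genes of each; those of the early erythroid-like comparison were chosen after their values were seen. Alternatives were other normalization, filters, depths, limits and class markers, and leaving out each library; early erythroid-like classes and depth ranges were added after seeing the data. Positions are from GENCODE vM21 and promoters from RefSeq (GRCm38.p6).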

Additional observations from a re-analysis of the deposited data

Results flagged for a closer look

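Wells under 1000 transcripts, used in no comparison, also held transcripts of the 9 genes. In 530 such CD44+ wells there were 70 transcripts, or 639 CPM (95% exact Poisson interval 498 to 807), and in 663 CD44- wells there were 104, or 744 CPM (608 to 902). Both lie above the limit that a count of 0 allows, which is why they are given here. Among the wells used, the 9 genes summed to 1827 CPM (CD44+) and 440 CPM (CD44-), so the shallow wells of the 2 sorts were closer to each other than the wells used. Their median depths were 104 and 115 transcripts.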

How the results depend on the processing

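Counts of genes called between sorts, 1 higher and 24 lower, became 98 and 172 with DESeq2, 142 and 335 without the filter (where the median of all genes moved to 0.40), 7 and 54 without low-quality wells, 43 and 113 with the replicate block, 1 and 160 on the shared plates alone, and 0 and 0 after thinning to 1000 transcripts (31 at an unadjusted p under 0.05) or without early erythroid-like wells (110). Leaving out 1 library gave 0 to 7 higher and 0 to 108 lower. The median sort difference of the 9 genes, 2.26, was 2.73 without the filter and 2.10 to 2.72 leaving out 1 library.

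For Car1-rich wells, 130 higher and 522 lower became 15 and 398 with DESeq2, 108 and 974 without the filter (all-gene median -0.83), 11 and 52 thinned to 1000, 5 and 50 thinned to 3000, 17 and 303 with no replicate block, 290 and 576 at 1 Car1 transcript, 10 and 108 at 5 per 1000, 9 and 140 over all 6 libraries, 8 and 64 within early erythroid-like wells, and 263 and 610 for early erythroid-like wells themselves. Leaving out 1 library gave 10 to 186 higher and 276 to 780 lower. The median of the 9, 1.69, was 0.22 within early erythroid-like wells and -0.083 at 5 per 1000. Signs turned at 5 per 1000 for Asns (-0.083), Slc38a5 (-0.22), Acss1 (-0.50), Stard10 (-1.13) and Fam132a (-0.19), within early erythroid-like wells for Slc38a5 (-0.86), Acss1 (-0.012), Stard10 (-0.82) and Sphk1 (-0.13), and with the other early erythroid markers for Mt1 (-0.37) and Mt2 (-0.033). The causes were not tested. For single genes these alternatives left direction and call as they were in 90 values, took the call from 21, gave it to 5 and turned 11.

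The difference between sorts in the class difference, 2 higher and 5 lower, was 0 and 15 with DESeq2, 3 and 3 without the filter, 0 and 2 at 2000 transcripts, 0 and 0 at 1 Car1 transcript (101 at an unadjusted p under 0.05), and 0 to 2 and 0 to 7 leaving out 1 library. Early erythroid-like wells gave 263 higher, 106 with DESeq2, and 57 to 635 higher and 246 to 1208 lower leaving out 1 library. The mean log2 ratio outside Car1-rich wells, 1.15, was -0.029 at 1 Car1 transcript, 2.03 at 5 per 1000 and 0.071 without early erythroid-like wells. The shallow CD44- libraries limit all sort values, since single transcripts weigh heavily there.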
